A study of Homo sapiens with 9 samples.

Results

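The ATF4 stress response regulators are 10 genes of the 60623 listed in each library: ATF4, ATF5, ATF3, DDIT3, TRIB3, PPP1R15A, DDIT4, SESN2, CHAC1 and GDF15. They were matched by gene name, and each name had 1 identifier. The set was selected on measured values, because the names were chosen by someone who had seen the FPKM (fragments scaled by exon length and by library total) of these same libraries. The rises with doxycycline given here, and the differences from the empty vector line, are therefore a description of genes picked with that response in view.

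RNA was sequenced from U937, a monocytic cell line of human origin, as 3 stable lines given 5 μg/ml doxycycline for 0, 12 or 48 h. One line carried HA-tagged AML1-ETO, the fusion of RUNX1 with RUNX1T1, and was the single-cell clone #4. Another carried HA-tagged ETO2-GLIS2, the fusion of CBFA2T3 with GLIS2, and was the single-cell clone #14. The control line carried the empty vector and received the same drug for the same times. All 3 lines were made with a retroviral, doxycycline-inducible vector, selected with puromycin and kept in Tet-free serum. Each of the 9 conditions had 1 library, so no difference between conditions has a replicate check and no p-value was computed. No untreated culture was sampled at 12 or 48 h, so doxycycline and time in culture cannot be told apart. Each fusion was present in 1 clone, so a fusion and its clone cannot be told apart either. In bulk RNA, a change in the cells present and a change in the RNA of each cell are also indistinguishable.

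ATF4 is a bZIP transcription factor at the centre of the integrated stress response. Kinases that sense amino acid shortage, unfolded protein in the endoplasmic reticulum, double-stranded RNA or heme shortage phosphorylate eIF2alpha, which lowers general translation and favours translation of ATF4 mRNA. ATF4 then activates other transcription factors, brakes on the pathway and effectors of amino acid and redox metabolism, and doxycycline, which inhibits mitochondrial translation, is a known trigger of this response in cultured cells.

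The library totals recovered from the FPKM values ranged from 15136403 to 18443647 reads on genes. RUNX1T1 was at 0.512, 22.2 and 28.7 FPKM at 0, 12 and 48 h in AML1-ETO cells and at most 0.0240 FPKM in the other lines. GLIS2 and CBFA2T3 went from 2.39 to 8.85 FPKM and from 4.10 to 12.6 FPKM between 0 and 48 h in the ETO2-GLIS2 line. Of the 9 monocytic markers, SPI1, LYZ and CD4 were above 10 FPKM in all 9 libraries, while CD14 was at most 0.0802 FPKM and MPO at most 0.780 FPKM. Of the markers of other cells, CD3E, MS4A1, HBB, GP9 and EPCAM were listed at 0 in every library. The 48 h library of the AML1-ETO line stood apart. SPI1 was at 11.9 FPKM there against at least 53.1 FPKM elsewhere, and LYZ at 45.1 FPKM against at least 332 FPKM. SPI1 was already lower at 12 h in the AML1-ETO line, at 53.1 FPKM against 92.6 FPKM at 0 h. The authors report that AML1-ETO represses SPI1, also by RT-qPCR in independent clones. In the 48 h library of the AML1-ETO line 13 of 13 mitochondrially encoded mRNAs were more than 2-fold lower than at 0 h, beside 11.3% of all genes. At the same time 4 were in the empty vector line, beside 2.99%, and 10 in the ETO2-GLIS2 line, beside 2.54%. Their part in the values given here was not tested.

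The promoters, taken as the 250 bases before and 50 bases after 1 transcription start per gene in RefSeq (GRCh38.p14), were searched on both strands for 4 sequence patterns, and all 10 members had an entry. For TRIB3 and DDIT3 that start lies inside the gene's annotated span rather than at its end. Any other start that a gene may use, ATF3 included, was not searched. The C/EBP-ATF element, searched as TGATGNAA, is the composite site through which ATF4 acts with C/EBP partners, and it was present in 2 member promoters against 3.62% of 35116 promoters. The cyclic AMP response element (CRE), TGACGTCA, was present in 1 against 1.85%. A RUNX pattern, TGTGGT, was present in 1, that of GDF15, against 13.1%, and the GLIS pattern TGGGGGGT in 0 against 1.47%. A match describes the letters only and says nothing of binding, and no match says only that these letters are not in this window. The 3 promoters with an ATF-type pattern are shown because these letters were found in them, 5′ to 3′ on the strand of the gene, ending at the base before the gene start, with the pattern in capitals. For CHAC1 (chr15:40953221-40953470, plus strand) the element lies 209 bases before the start, in the reverse orientation, for ATF3 (chr1:212565157-212565406, plus strand) 191 bases before it, and for PPP1R15A (chr19:48872321-48872420, plus strand) the palindromic CRE lies 58 bases before it.
CHAC1: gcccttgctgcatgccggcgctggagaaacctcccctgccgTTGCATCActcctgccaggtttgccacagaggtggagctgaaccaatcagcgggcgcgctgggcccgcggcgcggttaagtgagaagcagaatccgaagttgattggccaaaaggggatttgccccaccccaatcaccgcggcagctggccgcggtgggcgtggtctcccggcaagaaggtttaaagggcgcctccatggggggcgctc
ATF3: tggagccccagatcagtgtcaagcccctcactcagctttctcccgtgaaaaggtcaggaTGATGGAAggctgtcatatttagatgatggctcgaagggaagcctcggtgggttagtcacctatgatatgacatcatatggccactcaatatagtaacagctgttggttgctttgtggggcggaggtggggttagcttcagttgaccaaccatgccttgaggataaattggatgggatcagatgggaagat
PPP1R15A: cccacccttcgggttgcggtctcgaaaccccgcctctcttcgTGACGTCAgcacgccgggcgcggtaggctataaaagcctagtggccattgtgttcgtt

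Before induction, the mean over the 3 lines was highest for ATF4, at 94.1 FPKM, followed by PPP1R15A at 23.2, TRIB3 at 16.2, SESN2 at 10.9, ATF5 at 3.21, DDIT4 at 2.69, DDIT3 at 1.55, CHAC1 at 1.37, ATF3 at 1.03 and GDF15 at 0.00963 FPKM. FPKM is scaled by exon length, which allows levels of different genes to be set side by side, but the places of DDIT3 and ATF5 are uncertain because exons of other genes cover part of theirs, as given with their values. From ATF4 to ATF5 the ranges of neighbours in this order over the 3 lines did not overlap, whereas those of ATF5 and DDIT4, DDIT4 and DDIT3, DDIT3 and CHAC1, and CHAC1 and ATF3 did. Those of ATF3 and GDF15 were again apart.

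**Figure D1:**
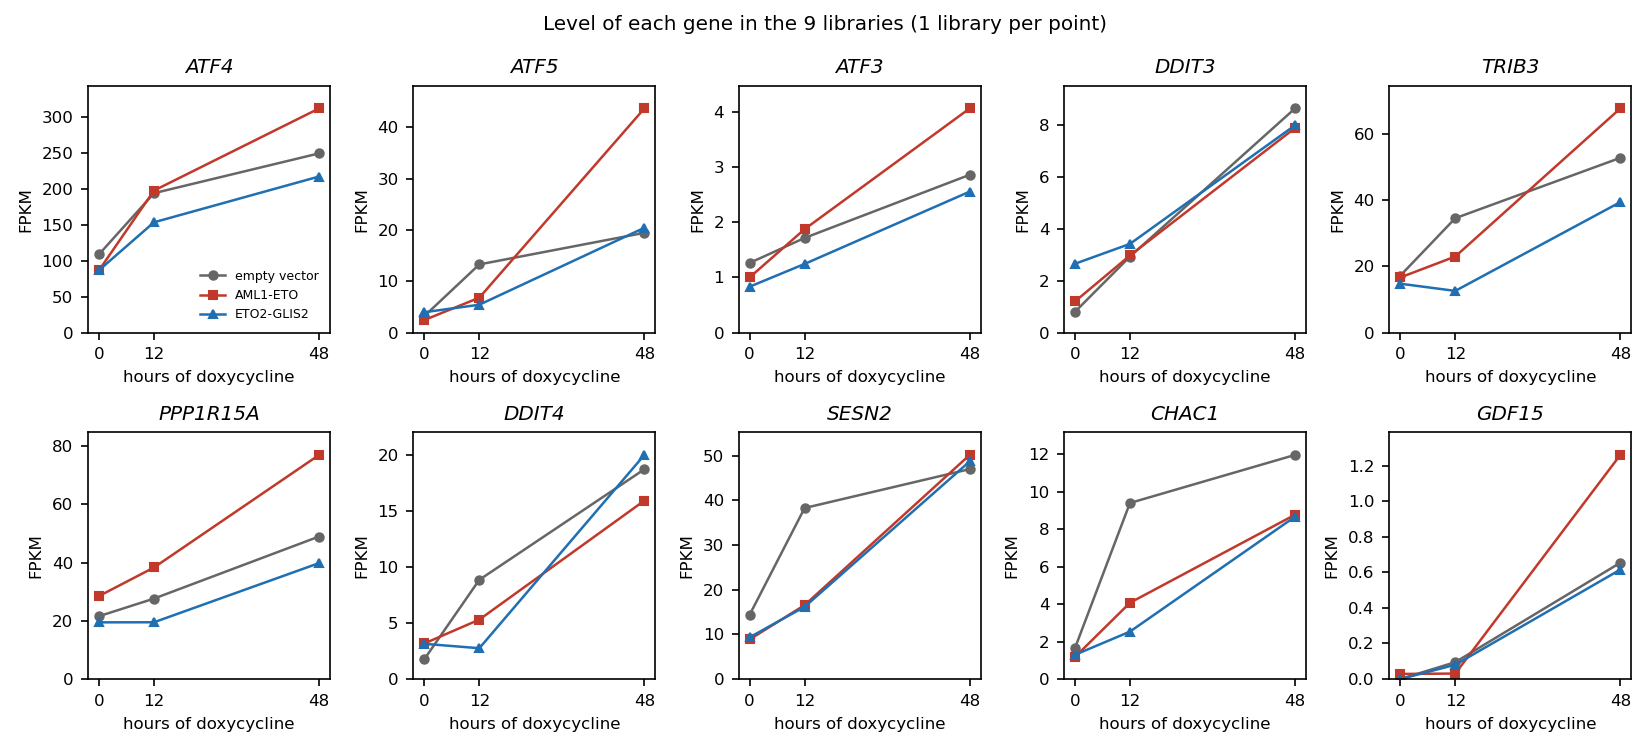
FPKM of each of the 10 genes on a linear axis from 0, against hours of doxycycline, for the empty vector line (grey circles), the AML1-ETO line (red squares) and the ETO2-GLIS2 line (blue triangles), 1 library per point and no error bars because there are no replicates. At 48 h every line is above its own 0 h value for every gene, and at 12 h the empty vector line is far above both fusion lines for SESN2 and CHAC1.

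ATF4 (ENSG00000128272, chromosome 22 from 39520559 to 39522686 in RefSeq on GRCh38.p14, as for the other members) was at 109, 194 and 249 FPKM at 0, 12 and 48 h in the empty vector line. It was at 86.7, 198 and 312 FPKM in AML1-ETO cells. In the ETO2-GLIS2 line it was at 86.8, 154 and 217 FPKM. The mRNA of the factor itself therefore stood higher at each later time in all 3 lines, with the AML1-ETO line highest at 48 h and the ETO2-GLIS2 line lowest at both later times. Intervals for fold changes were computed from the reads behind each FPKM as 95% exact intervals. They cover counting error only, not the spread between cultures, and as the reads carry no molecular identifiers they cannot be taken as separate molecules. On the log2 scale (FPKM plus 0.01) the 48 h change of ATF4 was 1.196 (1.14 to 1.25) in the empty vector line, 1.85 (1.79 to 1.90) for AML1-ETO cells and 1.32 (1.27 to 1.38) in the ETO2-GLIS2 line. At 12 h it was 0.83, 1.19 and 0.82. ATF4 has processed pseudogenes that could share reads, and the 4 listed by name reached at most 1.74 FPKM.

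ATF5 (ENSG00000169136, chromosome 19 from 49928906 to 49933935), a bZIP factor related to ATF4 and known for the mitochondrial unfolded protein response, had the widest span among the other transcription factors. It was at 3.21, 13.3 and 19.5 FPKM in the empty vector line, at 2.44, 6.81 and 43.7 FPKM in AML1-ETO cells, and at 3.97, 5.43 and 20.4 FPKM in the ETO2-GLIS2 line. At 12 h the empty vector line stood above both fusion lines, and at 48 h the AML1-ETO line stood above the other lines. The rise from 0 to 48 h was 6.06-fold with the empty vector, 17.9-fold with AML1-ETO and 5.14-fold with ETO2-GLIS2. Exons of other genes cover 19.5% of the exon bases of ATF5 on the opposite strand and 2.56% on the same strand in an annotation on GRCh37, and the library kit does not mark strand.

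ATF3 (ENSG00000162772, chromosome 1 from 212565407 to 212620777), a bZIP factor induced by many stresses, was among the low members. Its level was 1.26, 1.72 and 2.86 FPKM in the empty vector line, 1.0, 1.88 and 4.07 FPKM in AML1-ETO cells, and 0.832, 1.25 and 2.56 FPKM in the ETO2-GLIS2 line. These rest on 62 to 250 reads per library. The changes at 12 h, 0.44 (0.01 to 0.88), 0.90 (0.46 to 1.36) and 0.58 (0.10 to 1.07) on the log2 scale, were all below 2-fold. At 48 h they were 1.17, 2.01 and 1.61.

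DDIT3 (ENSG00000175197, chromosome 12 from 57516588 to 57520517) encodes CHOP, a C/EBP-related factor linked to cell death under lasting stress. Its level was 0.80, 2.93 and 8.65 FPKM in the empty vector line, 1.2, 2.97 and 7.89 FPKM in AML1-ETO cells, and 2.65, 3.42 and 8.0 FPKM in the ETO2-GLIS2 line. The 3 lines were close together at 12 and 48 h and apart before induction. The uninduced level in the ETO2-GLIS2 line, from 64 reads, was above that of the empty vector line, from 17 reads, by 1.72 on the log2 scale (0.94 to 2.60). The 48 h rise was 10.8-fold with the empty vector, 6.58-fold with AML1-ETO and 3.01-fold with ETO2-GLIS2, although the 48 h level of the ETO2-GLIS2 line differed from that of the empty vector line by -0.11 (-0.43 to 0.20). Exons of other genes, among them MARS1 and MBD6, cover 31.6% of the exon bases of DDIT3 on the opposite strand and 8.03% on the same strand, so its level is uncertain.

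TRIB3 (ENSG00000101255, chromosome 20 from 380760 to 397559), a pseudokinase that restrains ATF4 and CHOP, was at 17.2, 34.5 and 52.8 FPKM in the empty vector line. It was at 16.6, 23.0 and 67.7 FPKM in AML1-ETO cells and at 14.8, 12.6 and 39.4 FPKM in the ETO2-GLIS2 line. The lines began alike and separated at 12 h. The 12 h change was 1.01 (0.89 to 1.13) with the empty vector, 0.46 (0.33 to 0.60) with AML1-ETO and -0.23 (-0.38 to -0.08) with ETO2-GLIS2. From 12 to 48 h TRIB3 then rose 1.53-fold, 2.95-fold and 3.13-fold in the same order.

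PPP1R15A (ENSG00000087074, chromosome 19 from 48872421 to 48876058) encodes GADD34, which brings protein phosphatase 1 to eIF2alpha and so closes the feedback loop of the pathway. Its level was 21.6, 27.7 and 49.0 FPKM in the empty vector line, 28.5, 38.3 and 77.0 FPKM in AML1-ETO cells, and 19.5, 19.5 and 39.9 FPKM in the ETO2-GLIS2 line. The AML1-ETO line was highest and the ETO2-GLIS2 line lowest at each of the 3 times. The 12 h change was 0.36, 0.43 and 0.00 on the log2 scale, the last turning to -0.12 when libraries were rescaled by their median ratio. At 48 h the changes were 1.18, 1.43 and 1.03, the smallest among the members in the AML1-ETO and ETO2-GLIS2 lines, and the 1.03 of the ETO2-GLIS2 line became 0.86 after that rescaling.

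DDIT4 (ENSG00000168209, chromosome 10 from 72273924 to 72276036) encodes REDD1, an inhibitor of mTORC1 signalling. Its level was 1.77, 8.85 and 18.7 FPKM in the empty vector line, 3.17, 5.30 and 15.9 FPKM in AML1-ETO cells, and 3.14, 2.75 and 19.97 FPKM in the ETO2-GLIS2 line. Both fusion lines started above the empty vector line, by 0.84 (0.37 to 1.33) and 0.83 (0.37 to 1.31) on the log2 scale, and both stood below it at 12 h. At 48 h the 3 levels lay close together. The rise from 12 to 48 h in the ETO2-GLIS2 line was 7.26-fold, the largest of the 9 members above the filter in any line over that interval.

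SESN2 (ENSG00000130766, chromosome 1 from 28259518 to 28282491) encodes a leucine sensor upstream of mTORC1 with antioxidant roles. It was at 14.4, 38.3 and 47.0 FPKM in the empty vector line, at 8.88, 16.6 and 50.2 FPKM in AML1-ETO cells, and at 9.35, 16.2 and 48.7 FPKM in the ETO2-GLIS2 line. Both fusion lines were below the empty vector line at 0 and 12 h and close to it at 48 h, where the differences were 0.09 (0.02 to 0.17) and 0.05 (-0.03 to 0.13) on the log2 scale.

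CHAC1 (ENSG00000128965, chromosome 15 from 40953471 to 40956512) encodes an enzyme that breaks down glutathione. Its level was 1.65, 9.41 and 12.0 FPKM in the empty vector line, 1.18, 4.08 and 8.78 FPKM in AML1-ETO cells, and 1.30, 2.54 and 8.67 FPKM in the ETO2-GLIS2 line. The empty vector line was highest at all 3 times, and its 12 h level exceeded the 48 h levels of both fusion lines. The 48 h rises were nonetheless close, at 7.26-fold, 7.46-fold and 6.70-fold.

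GDF15 (ENSG00000130513, chromosome 19 from 18386158 to 18389176), a secreted cytokine of the TGF-beta family used as a marker of mitochondrial stress, was the only member that did not pass the filter of a mean of at least 1 FPKM in any comparison. It had 0, 3 and 21 reads in the empty vector line, 1, 1 and 40 reads in AML1-ETO cells, and 0, 3 and 21 reads in the ETO2-GLIS2 line. At 48 h it reached 0.654, 1.26 and 0.615 FPKM. Against a floor of 3 reads per library, which is the limit a count of 0 allows, it was at least 7.40-fold higher at 48 h than at 0 h in the empty vector line and at least 7.89-fold higher in the ETO2-GLIS2 line. In the AML1-ETO line the rise from 1 read gave 43.6-fold, or 2.88 to 10.78 on the log2 scale. The change at 12 h was not detectable at this depth.

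A gene was called higher or lower at a change of more than 2-fold, provided that the libraries compared averaged at least 1 FPKM. In the empty vector line, 6 of the 9 members that passed this filter were higher at 12 h, namely ATF5, DDIT3, TRIB3, DDIT4, SESN2 and CHAC1, beside 5.64% of all genes tested. In the AML1-ETO line 4 were, namely ATF4, ATF5, DDIT3 and CHAC1, beside 6.57%, and in the ETO2-GLIS2 line 0 of 9 were, beside 3.03%. TRIB3 in the empty vector line, at 2.01-fold, lay just inside the limit and CHAC1 in the ETO2-GLIS2 line, at 1.96-fold, just outside it. The median log2 change of the members at 12 h was 1.41, 0.90 and 0.45 in the empty vector, AML1-ETO and ETO2-GLIS2 lines, beside 0.14, 0.18 and 0.11 for all genes tested. Rescaling by the median ratio, which centres the median of all genes near 0 by construction, left all-gene medians of -0.02 to 0.04 at the later times. Whether the shift it removed is a matter of scaling was not tested.

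At 48 h, 9 of 9 members were more than 2-fold higher than at 0 h in each line, beside 8.0% of all genes in the empty vector line, 17.3% for AML1-ETO cells and 10.8% in the ETO2-GLIS2 line. Their median log2 change was 1.71, 2.32 and 1.61 beside 0.16, 0.22 and 0.16 for all genes. No member was called lower at either time, beside 1.88% and 2.99% of genes at 12 and 48 h in the empty vector line, 2.39% and 11.3% in AML1-ETO cells and 1.46% and 2.54% in the ETO2-GLIS2 line. Over the 3 lines together, the 12 h levels lay wholly above the 0 h levels for 5 of 9 members, beside 18.0% of genes. The 48 h levels lay wholly above those at 0 h for 9 of 9, beside 24.5%. They lay wholly above those at 12 h for 8 of 9, CHAC1 being the exception, beside 8.36%.

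**Figure D2:**
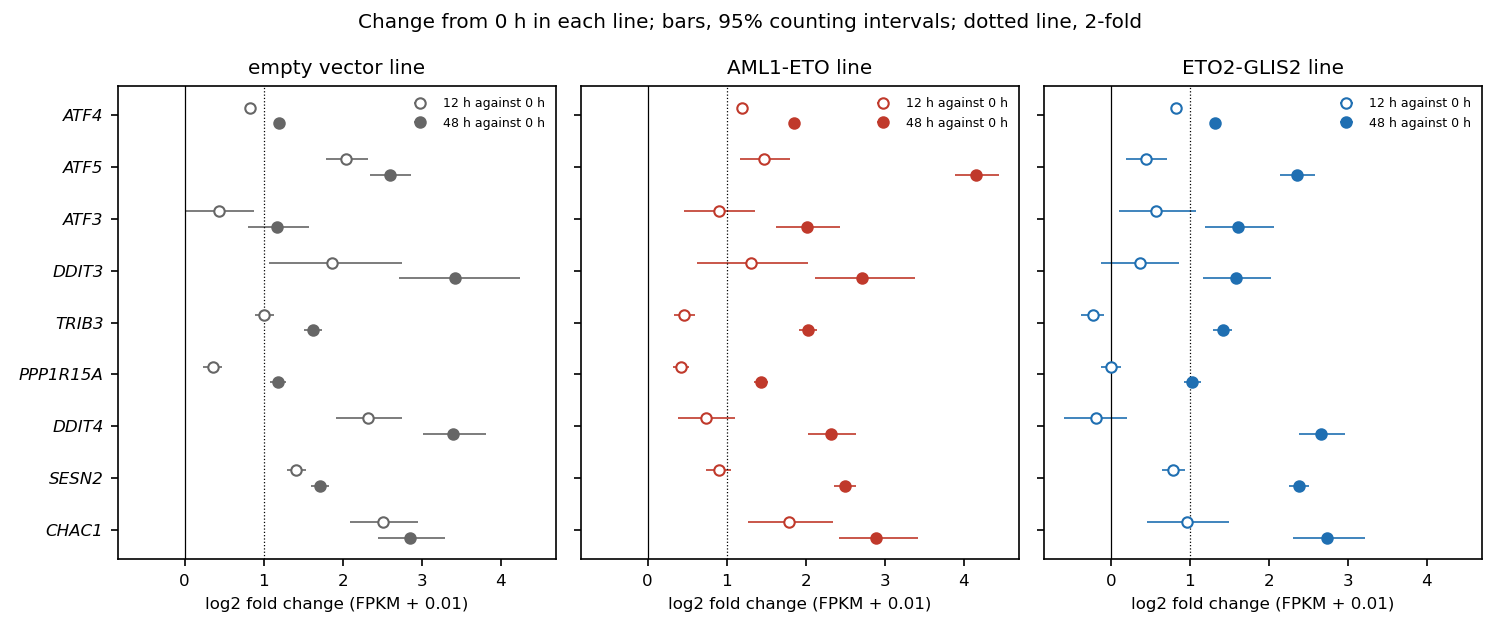
Log2 fold change from 0 h of the 9 genes with a mean of at least 1 FPKM, in 1 panel per line, at 12 h (open circles) and 48 h (filled circles) with 95% exact counting intervals, and a dotted line at 2-fold. The 12 h points lie past the dotted line for 6 genes with the empty vector, 4 with AML1-ETO and 0 with ETO2-GLIS2, and the 48 h points for all 9 in each panel.

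The lines were also compared by when the members rose. Between 12 and 48 h, 2 of 9 members were more than 2-fold higher in the empty vector line, DDIT3 and DDIT4, beside 2.22% of genes. In the AML1-ETO line 8 of 9 were, beside 9.12%, and in the ETO2-GLIS2 line 8 of 9 were, beside 5.67%, ATF4 being the exception in both. The log2 change at 12 h made up a median of 68.2% of that at 48 h in the empty vector line, with a range over members of 30.2% to 87.8%. This share was 36.0% (23.0% to 64.4%) in AML1-ETO cells and 23.0% (-16.3% to 62.2%) in the ETO2-GLIS2 line. ATF4 itself had similar shares in the 3 lines, at 69.7%, 64.4% and 62.2%, although its 12 h change was larger with AML1-ETO, while TRIB3 had 62.3%, 23.0% and -16.3% and ATF5 had 78.9%, 35.5% and 19.1%. For AML1-ETO the 48 h changes, from the library that stood apart, were larger than with the empty vector for 7 of 9 members. For these a lower share does not by itself mean a smaller change at 12 h. DDIT3 and DDIT4 had smaller 48 h changes, at 2.71 and 2.32 against 3.42 and 3.40. Their 12 h changes were 1.30 and 0.74 against 1.86 and 2.32. For DDIT3 the interval of the difference between the lines held 0 at both times.

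**Figure D3:**
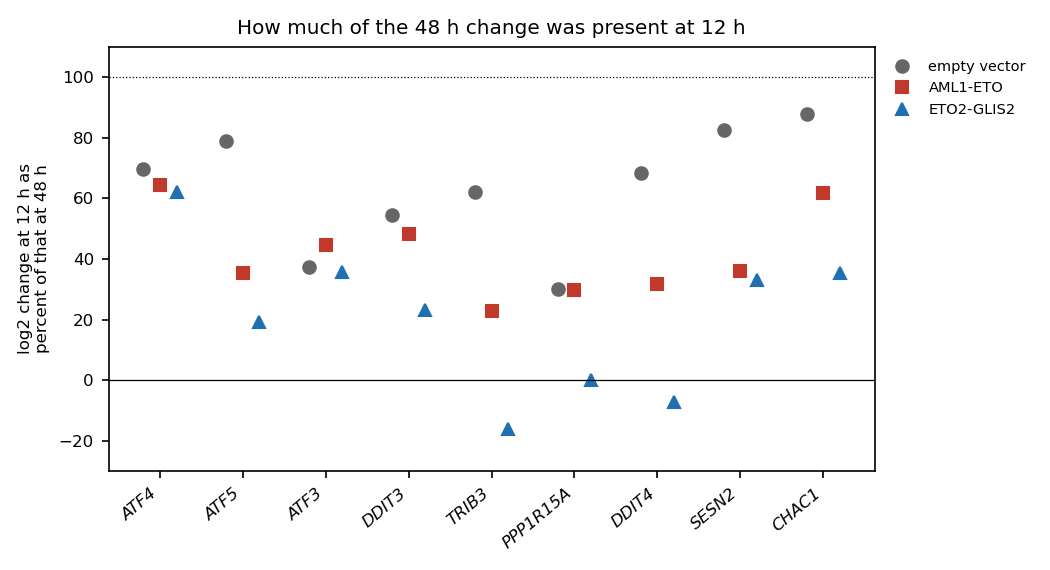
Log2 change at 12 h as a percentage of the log2 change at 48 h for the 9 genes with a mean of at least 1 FPKM, in the empty vector line (grey circles), the AML1-ETO line (red squares) and the ETO2-GLIS2 line (blue triangles), with 1 value per line and no error bars. The empty vector line is highest for 8 of the 9 genes, ATF3 being the exception, and the 3 lines lie close together for ATF4.

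To ask whether either fusion dampened or raised the response, the log2 change of a fusion line was set against that of the empty vector line over the same time. A member counted as raised or dampened when the changes differed by more than 2-fold. Both fusion lines are compared with the same empty vector libraries, so their values are not independent of each other. The members were picked with the rise in these libraries in view, and a high change in the empty vector line lowers the difference. All genes tested had a median change of only 0.14 in that line at 12 h. Their share is therefore no like-for-like comparison for genes that rose, and the numbers dampened are a description. With ETO2-GLIS2 at 12 h, 5 of 9 members were dampened, beside 3.46% of all genes, and 0 were raised, beside 2.18%. With a mean of at least 5 FPKM the number dampened was 2, ATF5 and TRIB3, beside 0.610% of genes. The rest of the 5 were too low to be tested. The differences were -2.51 (-3.10 to -1.93) for DDIT4, -1.60 (-1.98 to -1.22) for ATF5, -1.54 (-2.23 to -0.85) for CHAC1, -1.50 (-2.51 to -0.54) for DDIT3 and -1.24 (-1.43 to -1.05) for TRIB3. SESN2 and PPP1R15A differed by -0.62 (-0.81 to -0.43) and -0.35 (-0.53 to -0.18), and the interval held 0 for ATF4, at -0.01 (-0.09 to 0.07), and for ATF3, at 0.14 (-0.52 to 0.80). The 12 h level in the ETO2-GLIS2 line was also below that of the empty vector line for DDIT4, ATF5, CHAC1 and TRIB3, by -1.68, -1.29, -1.89 and -1.46 on the log2 scale. For DDIT3 it was not, with a difference of 0.22 (-0.28 to 0.74), and its smaller change goes with the higher uninduced level given above. With the 0 h library of the empty vector line as the reference the number was again 5, beside 4.36% of genes, with SESN2 in place of DDIT3.

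With ETO2-GLIS2 at 48 h, 0 of 9 members were raised, beside 4.40% of genes, and only DDIT3 was dampened, by -1.83 (-2.77 to -0.98), beside 3.94%. With the 0 h library of the empty vector line as the reference that call was lost, leaving 0, beside 2.53% of genes. The 48 h levels differed by -0.11. The other 8 differed from the empty vector line by between -0.73 for DDIT4 and 0.67 (0.50 to 0.85) for SESN2. For SESN2 the 48 h levels of these lines were 48.7 and 47.0 FPKM, and the uninduced level of the ETO2-GLIS2 line was lower by -0.62.

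With AML1-ETO at 12 h, 0 of 9 members were raised, beside 3.78% of genes, and only DDIT4 was dampened, by -1.58 (-2.15 to -1.03), beside 4.73%. DDIT4 started 0.84 higher in this line and its 12 h level differed by -0.74 (-1.02 to -0.46). With the 0 h library of the empty vector line as the reference it was therefore not called. SESN2 and CHAC1 then were, at -1.21 and -1.20, beside 4.37% of genes. With a mean of at least 5 FPKM, 0 were raised, beside 0.929% of genes, and 0 dampened, beside 1.89%. DDIT4 was too low to be tested at that filter. ATF4 changed more than in the empty vector line, by 0.36 (0.28 to 0.43), whereas CHAC1, ATF5, TRIB3 and SESN2 changed less, by -0.72 (-1.41 to -0.02), -0.57 (-0.98 to -0.15), -0.54 (-0.72 to -0.36) and -0.51 (-0.71 to -0.31). At 48 h only ATF5 was raised, by 1.56 (1.19 to 1.94), beside 9.99% of genes, and only DDIT4 was dampened, by -1.07 (-1.59 to -0.57), beside 13.2%. The DDIT4 call was lost with a pseudocount of 1 FPKM or with the 0 h library of the empty vector line as the reference, and the 48 h levels of DDIT4 in these lines differed by only -0.23 (-0.41 to -0.06). ATF3, SESN2 and ATF4 had larger changes than in the empty vector line short of 2-fold, by 0.84 (0.28 to 1.41), 0.79 (0.61 to 0.97) and 0.65 (0.58 to 0.73). These 48 h values all rest on the library of the AML1-ETO line that stood apart.

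**Figure D4:**
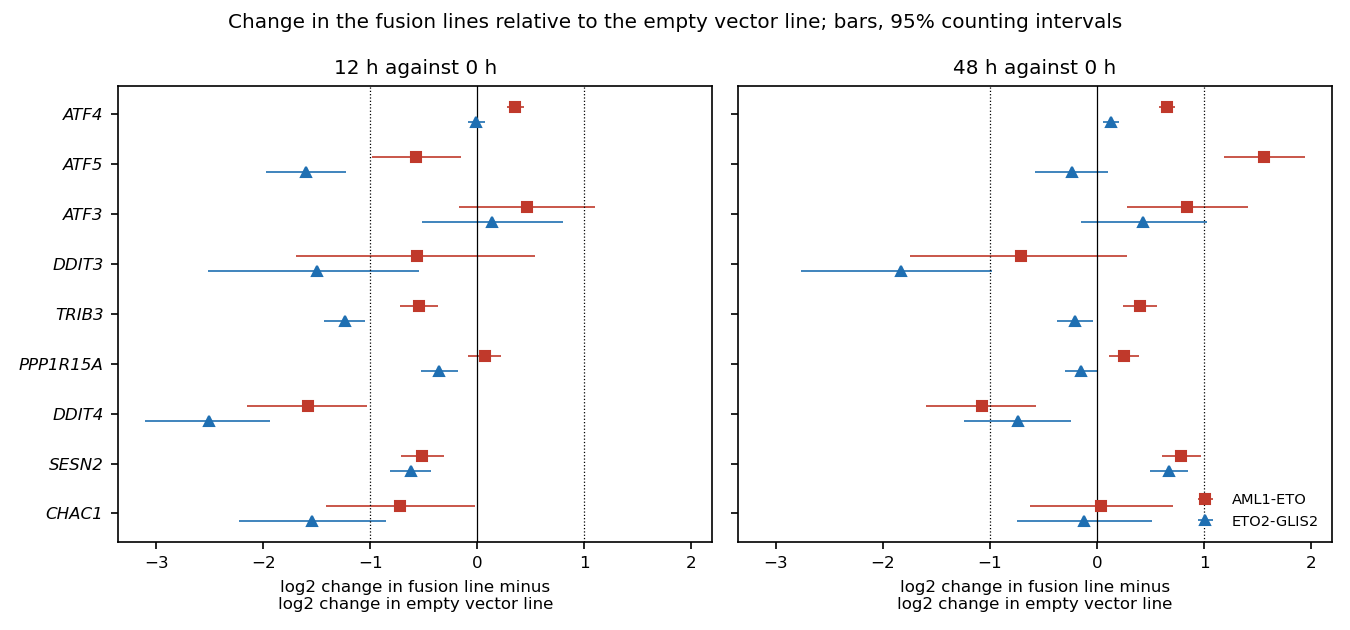
Log2 change in AML1-ETO cells (red squares) and the ETO2-GLIS2 line (blue triangles) minus that in the empty vector line, at 12 h (left) and 48 h (right), with 95% counting intervals and dotted lines at 2-fold. On the left, 5 blue triangles lie beyond the lower dotted line, and on the right ATF5 with AML1-ETO, at 1.56, is the only point beyond the upper one.

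Across the 9 libraries, the 36 pairs of members above the filter had Pearson correlations of log2 FPKM between 0.69 and 0.97, with a median of 0.90. The points share lines, clones and time in culture, so this is a description. Among 7221 genes with a mean of at least 5 FPKM, ZFAND3, which encodes a zinc finger protein, followed the mean of the 9 members most closely (r = 0.992 over 9 libraries). It was at 13.0, 26.4 and 39.0 FPKM in the empty vector line, at 12.1, 21.0 and 52.4 FPKM in AML1-ETO cells, and at 13.6, 18.6 and 36.0 FPKM in the ETO2-GLIS2 line. The next most similar were AL049840.2, RER1, COX19, AL627309.7, IDUA, DMAP1 and APOL6, with r between 0.977 and 0.991. COX19, which serves assembly of cytochrome c oxidase, kept a narrow range of 4.64 to 9.24 FPKM, so a similar shape does not mean a similar size of change.

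Upstream of the members, 14 genes were measured, which encode eIF2alpha, its kinases, its exchange factor subunits, a phosphatase partner (PPP1R15B), and DELE1, OMA1 and IMPACT, which relay signals to these kinases or restrain them. None was past 2-fold in any line at 12 h, where 5.64%, 6.57% and 3.03% of all genes were higher and 1.88%, 2.39% and 1.46% lower. At 48 h the only one was EIF2AK2, higher in AML1-ETO cells, beside 17.3% of all genes. EIF2AK2 encodes PKR, the kinase activated by double-stranded RNA and induced by interferon, and was at 8.79, 11.1 and 89.1 FPKM in that line, against 9.80, 11.8 and 12.9 FPKM with the empty vector. The genes of the other eIF2alpha kinases stayed within 2-fold of their 0 h level in each line. EIF2AK1 (HRI) ranged from 50.4 to 65.1 FPKM, EIF2AK4 (GCN2) from 12.6 to 16.9 FPKM and EIF2AK3 (PERK) from 1.03 to 1.83 FPKM. Kinase activity is not measured by mRNA.

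Downstream, 3 lists of known metabolic targets of ATF4 were followed. Of 9 enzymes above the filter, out of 12 listed, 1, 2 and 2 were more than 2-fold higher at 12 h in the empty vector, AML1-ETO and ETO2-GLIS2 lines. The shares of all genes were 5.64%, 6.57% and 3.03%, and the medians of the enzymes were 0.69, 0.53 and 0.62 on the log2 scale. At 48 h 3, 4 and 7 were, beside 8.0%, 17.3% and 10.8% of all genes, with medians of 0.77, 0.87 and 1.17. PSAT1, a serine synthesis enzyme, was at 60.9, 181 and 231 FPKM with the empty vector, at 34.6, 94.1 and 107 FPKM with AML1-ETO and at 51.5, 116 and 253 FPKM with ETO2-GLIS2. ALDH18A1, of proline synthesis, was the only enzyme more than 2-fold lower at 48 h, in the empty vector and AML1-ETO lines. There 2.99% and 11.3% of all genes were lower. With ETO2-GLIS2 ALDH18A1 lay just outside the limit, at -0.997 on the log2 scale against -1.12 and -1.08. ASNS and PYCR1, usually among the strongest targets, were below 0.2 FPKM in all 9 libraries, and other genes cover 49.3% of the exon bases of ASNS and 14.1% of those of PYCR1 on the same strand in the GRCh37 annotation.

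Of 7 amino acid transporters above the filter, out of 9 listed, 1, 2 and 0 were higher at 12 h, beside 5.64%, 6.57% and 3.03% of all genes. At 48 h 2, 3 and 5 were, beside 8.0%, 17.3% and 10.8%. Their medians at 12 h were 0.72, 0.54 and 0.71. At 48 h 1 was lower with AML1-ETO, SLC1A4 at -1.17, beside 11.3% of all genes. SLC7A11, the cystine transporter, was at 2.81, 6.67 and 13.1 FPKM with the empty vector, at 2.72, 12.6 and 68.9 FPKM with AML1-ETO, and at 3.13, 5.59 and 18.9 FPKM with ETO2-GLIS2. Of 12 tRNA synthetases, 2, 0 and 0 were higher at 12 h and 4, 6 and 6 at 48 h, beside the same shares of all genes. Their medians at 12 h were nearly equal, at 0.66, 0.65 and 0.64. WARS1, the tryptophan enzyme, was at 30.6, 78.9 and 81.6 FPKM with the empty vector, at 24.5, 48.7 and 107 FPKM with AML1-ETO and at 28.4, 49.4 and 83.6 FPKM with ETO2-GLIS2. The medians of these 3 metabolic lists at 12 h lay within 0.2 of each other over the lines. The median of the 9 regulators, picked with their response in view, went from 1.41 to 0.45, so the contrast is not like for like. In each metabolic list the 2 genes above the filter that rose most in the empty vector line changed less with ETO2-GLIS2. These were PSAT1 (1.17 against 1.57), GPT2 (0.69 against 0.996) and SLC7A11 (0.84 against 1.24). The others were SLC3A2 (0.53 against 0.98), WARS1 (0.80 against 1.37) and CARS1 (0.89 against 1.01). Some genes changed more, such as CBS (1.89 against 0.62) and SLC7A5 (0.85 against 0.72). A further list, of other ATF4 partners and targets, had 12 h medians of 0.35, 0.09 and 0.13, lower in both fusion lines than with the empty vector. Whether the lists differ from each other was not tested.

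**Figure D5:**
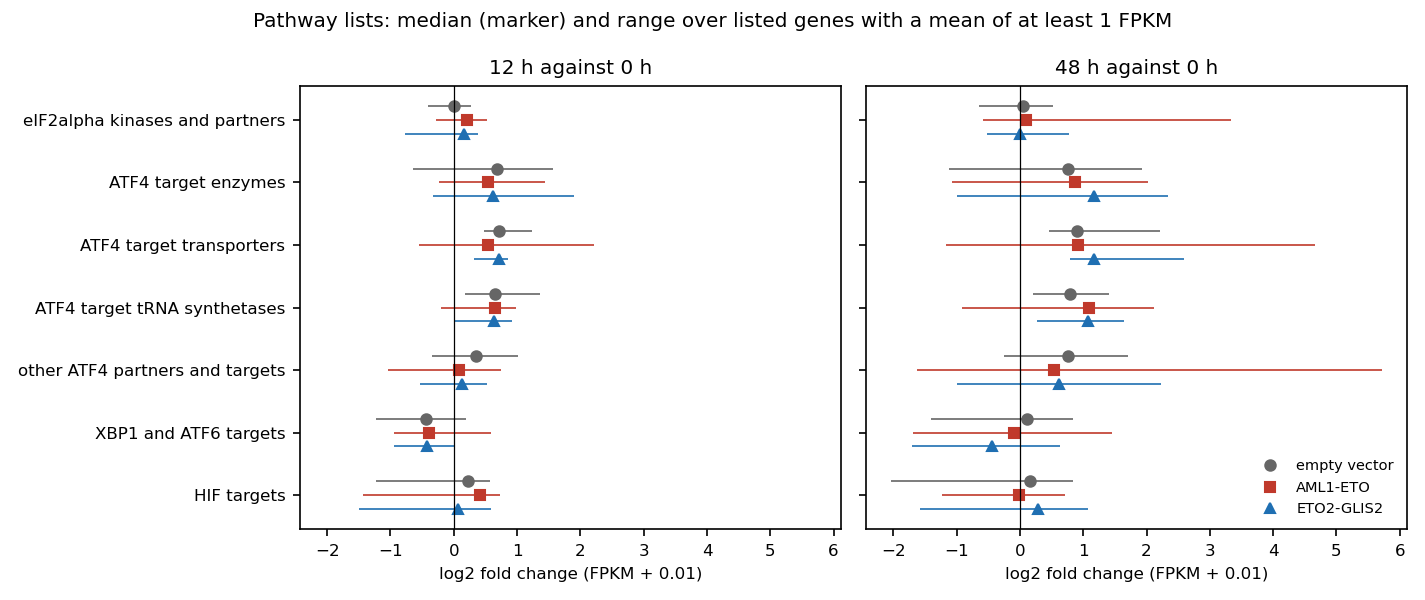
Median (marker) and full range (line) of the log2 fold change from 0 h over the genes of each pathway list with a mean of at least 1 FPKM, at 12 h (left) and 48 h (right), for the empty vector line (grey circles), the AML1-ETO line (red squares) and the ETO2-GLIS2 line (blue triangles). The 3 metabolic ATF4 target lists have medians above 0.5 in every line at 12 h, where the list of XBP1 and ATF6 targets has medians below -0.3.

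The other branches of the unfolded protein response run through XBP1 and ATF6. Of 15 targets of these factors, 2 were more than 2-fold lower at 12 h in the empty vector line, the endoplasmic reticulum proteins SDF2L1 and MANF, beside 1.88% of all genes, and 0 in the other lines, with medians of -0.43, -0.39 and -0.42 beside all-gene medians above 0. At 48 h, 1, 4 and 4 were lower, beside 2.99%, 11.3% and 2.54% of all genes, and 0, 2 and 0 higher. HSPA5, the chaperone BiP, was at 248, 158 and 245 FPKM with the empty vector, at 291, 176 and 288 FPKM with AML1-ETO and at 371, 231 and 274 FPKM with ETO2-GLIS2, and was named after its values were seen. Of 20 other partners and targets of ATF4, 15 passed the filter at 12 h. VEGFA and CEBPB were higher in the empty vector line, beside 5.64% of all genes, and none in the fusion lines. Both lay just inside the limit, at 1.01 and 1.001 on the log2 scale. At 12 h 1 was lower with AML1-ETO, CEBPB at -1.03, beside 2.39%. At 48 h, 4, 2 and 2 were higher, beside 8.0%, 17.3% and 10.8%, and 3 were lower with AML1-ETO, beside 11.3%. CEBPB, a bZIP partner of ATF4, was at 21.0, 42.1 and 50.3 FPKM with the empty vector, at 30.4, 14.9 and 19.8 FPKM with AML1-ETO and at 20.6, 19.3 and 36.4 FPKM with ETO2-GLIS2.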

How the data were processed

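RNA of 9 U937 libraries was sequenced from TruSeq libraries (version 2 kit, which does not mark strand). Per the labels and methods, the authors aligned reads to hg38 with HISAT2 (2.0.5), processed them with SAMtools (1.7), assigned reads to genes by HTSeq (0.9.1) and deposited FPKM for 60623 genes. The annotation version is not given in the sources used here. Reads behind each FPKM were recovered as whole numbers for 23888 of 23889 genes (99.9958%; genes with a value in 3 or more libraries), within 0.02 reads, and served only for intervals and the floor of 3 reads. Python (3.11.15), numpy (2.4.6), pandas (2.3.3), scipy (1.17.1) and matplotlib (3.10.9) were used, and recovery, intervals and calls were tested on simulated data.

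Libraries were grouped by their labels. Changes are log2(FPKM + 0.01), which understates the change of low genes, and calls need more than 2-fold and a mean of at least 1 FPKM. Members and gene lists were chosen with earlier results of these data known. Other genes named are the 8 closest to the members in profile, up to 2 per list with the largest 12 h change in the empty vector line, the kinase list and the label and marker genes. ZFAND3 and the rest of the 8 needed a mean of at least 5 FPKM. Genes of 5 or fewer calls and ASNS, PYCR1, ALDH18A1 and HSPA5 were named after their values were seen. Alternatives were another pseudocount, filter, scaling, threshold and reference library. Promoters are from RefSeq (GRCh38.p14), and exon overlaps from an annotation on GRCh37, without coordinates. A marker gene and a gene list are not reported here.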

Additional observations from a re-analysis of the deposited data

Results flagged for a closer look

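At 12 h, TRIB3 and DDIT4 were higher than at 0 h in AML1-ETO cells and lower than at 0 h in the ETO2-GLIS2 line. The log2 changes differed by 0.69 for TRIB3, at 0.46 against -0.23, and by 0.93 for DDIT4, at 0.74 (0.38 to 1.103) against -0.19 (-0.59 to 0.20). With 1 library per line and time this difference was not tested, and for DDIT4 the interval of the ETO2-GLIS2 value holds 0. Both genes were higher than at 0 h in both lines at 48 h.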

How the results depend on the processing

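With 1 library per condition nothing can be left out, and depth limits the low members, since GDF15 had at most 3 reads before 48 h and DDIT3 17 before induction. Changes were taken within each line, and with 1 library per line and time there were no replicate pairs to analyse. All 3 counts of members higher at 48 h stayed within 1.5 times their value under every alternative tried. With a mean of at least 5 FPKM, the number higher at 12 h with AML1-ETO was 1, beside 1.80% of all genes tested. ATF5, DDIT3 and CHAC1 were too low to be tested there. At that filter the numbers dampened at 12 h were 0 with AML1-ETO, beside 1.89%, and 2 with ETO2-GLIS2, beside 0.610%. DDIT4 was too low to be tested in either. Without a filter, 1 of 10 members was higher at 12 h with ETO2-GLIS2, namely GDF15, beside 18.3% of genes. Also without a filter, 2 of 10 were dampened with AML1-ETO at 12 h and 2 at 48 h, beside 21.2% and 22.7%. With a 1.5-fold threshold, 7 and 3 members were higher at 12 h with AML1-ETO and ETO2-GLIS2, beside 18.0% and 8.92% of genes. At that threshold 2 were dampened with AML1-ETO at 12 h, beside 10.4%. With AML1-ETO at 48 h 4 were raised and 2 dampened, beside 20.3% and 22.5%. With ETO2-GLIS2 at 48 h 1 was raised and 2 dampened, beside 10.6% and 9.89%. With a pseudocount of 1 FPKM, 0 were dampened with AML1-ETO at 48 h, beside 9.53% of genes. With the empty vector 0 h library as the reference for all lines, 1 member was higher at 12 h with ETO2-GLIS2, beside 6.09%. Against that reference 2 were dampened with AML1-ETO at 12 h, SESN2 and CHAC1 and not DDIT4, beside 4.37%. At 48 h 0 were dampened with either fusion, beside 11.7% with AML1-ETO and 2.53% with ETO2-GLIS2. Apart from the construction of each alternative, the causes were not tested. For single members, 21 of 60 changes moved beyond their counting interval with a pseudocount of 1 FPKM and 21 of 60 after rescaling by the median ratio. Rescaling turned the sign of 2, PPP1R15A at 12 h with ETO2-GLIS2 (0.00 to -0.12) and GDF15 at 12 h with AML1-ETO (0.08 to -0.05), neither of which was called.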

Other observations

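Another list was followed beside the members. Of 12 HIF targets, 7, 8 and 7 passed the filter at each later time in the empty vector, AML1-ETO and ETO2-GLIS2 lines. Of these, 0 were higher at 12 h in any line, beside 5.64%, 6.57% and 3.03% of all genes. At 48 h 0, 0 and 1 were, beside 8.0%, 17.3% and 10.8%, the 1 being VLDLR, which the list of ATF4 partners also holds. At 12 h 1, 2 and 1 were lower, beside 1.88%, 2.39% and 1.46%, the further one with AML1-ETO being NDRG1, at -1.001 on the log2 scale. PFKFB4, a regulator of glycolysis, was more than 2-fold lower at 12 h in every line, at 2.89 FPKM against 6.81 with the empty vector, 2.83 against 7.68 with AML1-ETO and 2.34 against 6.63 with ETO2-GLIS2. At 48 h it stood at 1.65, 6.93 and 2.22 FPKM, so that the AML1-ETO line was again near its 0 h level.

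Mitochondrially encoded mRNAs, 13 in number, were followed as well. At 12 h, 3, 4 and 3 were more than 2-fold lower in the empty vector, AML1-ETO and ETO2-GLIS2 lines, beside 1.88%, 2.39% and 1.46% of all genes. Their medians were -0.55, -0.34 and -0.45 on the log2 scale. At 48 h, 4, 13 and 10 were, beside 2.99%, 11.3% and 2.54% of all genes, with medians of -0.53, -2.26 and -1.15. Not all moved downwards, the highest value at 48 h in the empty vector line being 0.28. MT-ND4L, a subunit of complex I, was lower by -1.57, -1.72 and -1.24 at 12 h. The library kit selects polyadenylated RNA, and the relation of these mRNAs to the members was not tested.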
